A study of Mus musculus with 6 samples.

Results

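The 10 genes described here belong to arginine, citrulline and polyamine metabolism. They are Arg2, Odc1, Ass1, Otc, Cps1, Oat, Sat1, Srm, Azin1 and Aldh18a1, taken by gene symbol from the annotation of the array's probe sets. Of the 19933 genes in the table, 9 of the 10 had a probe set naming no other gene, and 12 probe sets named a member in all. The 2 probe sets for Ass1 also named Gm5424, so their signal was not assigned to Ass1. They were chosen by their measured log2 difference between these same 2 groups, already known from an earlier analysis, so those differences are given as a description, with no test.

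The study used 6 Affymetrix Gene 1.0 ST arrays of epithelial cells isolated from mouse jejunum, a segment of the small intestine, with 1 biological replicate per array. The 3 arrays labelled transgenic came from TRE-MSI2::R26-M2rtTA mice, in which a tetracycline-responsive MSI2 transgene is combined with the M2rtTA transactivator placed at the Rosa26 locus. The 3 control arrays came from R26-M2rtTA mice, which carry the transactivator alone. All mice of both groups drank doxycycline, which activates M2rtTA, for 24 hours. The age and strain of the mice are not given in the sources used here, and Rosa26 drives the transactivator in many cell types, so induction need not be limited to the epithelium. MSI2 is a Musashi RNA-binding protein.

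Citrulline is made in the mitochondria of small intestinal enterocytes from glutamine and proline. Aldh18a1 makes pyrroline-5-carboxylate from glutamate, Oat turns it into ornithine, Cps1 supplies carbamoyl phosphate, and Otc joins that to ornithine to give citrulline. Ass1 and Asl can turn citrulline into arginine, which arginases split into ornithine and urea. Ornithine is also the substrate of Odc1, the first enzyme of polyamine synthesis. Srm then makes spermidine, Azin1 relieves Odc1 from its inhibitor antizyme, and Sat1 acetylates polyamines for export or breakdown. Polyamines support growth and renewal of the intestinal epithelium.

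The probe set of Msi2, the gene named in the transgene, did not separate the arrays by their labels. Msi2 read 11.23, 10.58 and 11.44 on the log2 scale in the arrays labelled transgenic, against 11.3, 9.53 and 9.32 in the controls. Control replicate 1 thus lay within the range of the arrays labelled transgenic, and Msi2 did not pass in limma with it (adjusted p = 0.257) but did without it (adjusted p = 0.00958). The paralog Msi1 read 13.26 ± 0.38 in the arrays labelled transgenic and 7.60 ± 0.38 in the controls (SD, n = 3 each). Its log2 difference was 5.66 (adjusted p = 0.000818 in limma), and it passed under each of the 14 alternatives. The transgene is described as MSI2 and not as MSI1, and the reason for the Msi1 difference was not tested. Directions below are therefore drawn between arrays by their labels. Control replicate 1 also stood apart over all genes, with correlations of 0.978 and 0.979 to the other controls. The other controls correlated with each other at 0.996. Values without control replicate 1 are given beside each member and each named gene whose call it changes. Transgenic replicate 2 correlated at 0.983 and 0.989 with the other arrays labelled transgenic, which correlated with each other at 0.991. Its correlations to the controls, 0.964 to 0.971, were the highest of its group. Without transgenic replicate 2, 4080 genes passed in limma, against 3710 with all arrays. Of 10 epithelial markers, 2 rose and 3 fell, and their mean level was 11.69 to 11.87 in the arrays labelled transgenic and 11.81 to 11.87 in the controls. Of 11 T cell and intraepithelial lymphocyte markers 10 fell, with a mean level of 6.15 to 7.04 in the arrays labelled transgenic and 8.04 to 8.5 in the controls. None of 12 absorptive enterocyte markers passed in limma (2 lower at an unadjusted p under 0.05), with a mean level of 10.72 to 12.36 in the arrays labelled transgenic and 11.82 to 13.06 in the controls, but 8 fell once replicate number entered as a block. Of 11 crypt progenitor and proliferation markers 3 fell, Ascl2, Olfm4 and Axin2, and the mean level was 9.09 to 9.44 in the arrays labelled transgenic and 9.56 to 10.14 in the controls. The direction of that list depended on the arrays: without control replicate 1, 3 markers fell and 3 of cell division, Pcna, Mcm2 and Cdk1, rose (adjusted p = 0.0338, 0.0344 and 0.0247 in limma), and with the replicate block 4 fell and 1 rose. The neutrophil markers S100a9 and Cxcr2, 2 of 6, rose, with a mean level of 5.42 to 5.58 against 5.09 to 5.14 in the controls. No marker of B and plasma cells, macrophages and dendritic cells, fibroblasts, endothelium or smooth muscle passed in limma, where 1 macrophage and 1 fibroblast marker were higher at an unadjusted p under 0.05. Cd68 rose with the replicate block (adjusted p = 0.0232), and C1qc and Dcn rose without control replicate 1 (adjusted p = 0.025 and 0.0322). Endothelial markers averaged 4.95 to 4.99 in the arrays labelled transgenic and 5.00 to 5.03 in the controls. The part of these cell types in the results below was not tested, and fewer cells of a type and less RNA per cell cannot be told apart in such samples.

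Over all genes, 18.6% passed limma at an adjusted p under 0.05 (8.97% higher and 9.65% lower in the arrays labelled transgenic). The groups did not overlap for 37% of genes (19.5% higher and 17.5% lower). Of the 9 measured members 6 passed, 1 higher and 5 lower, and the groups did not overlap for 7, 2 higher and 5 lower. These counts follow from the choice of the genes, and nothing is read from them. The pathway lists below were also chosen with earlier results known, so their counts are a description to be set beside these shares. The median log2 difference was -0.65 over the 9 members and 0.02 over all genes. The plot of values by array shows each member.

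**Figure D1:**
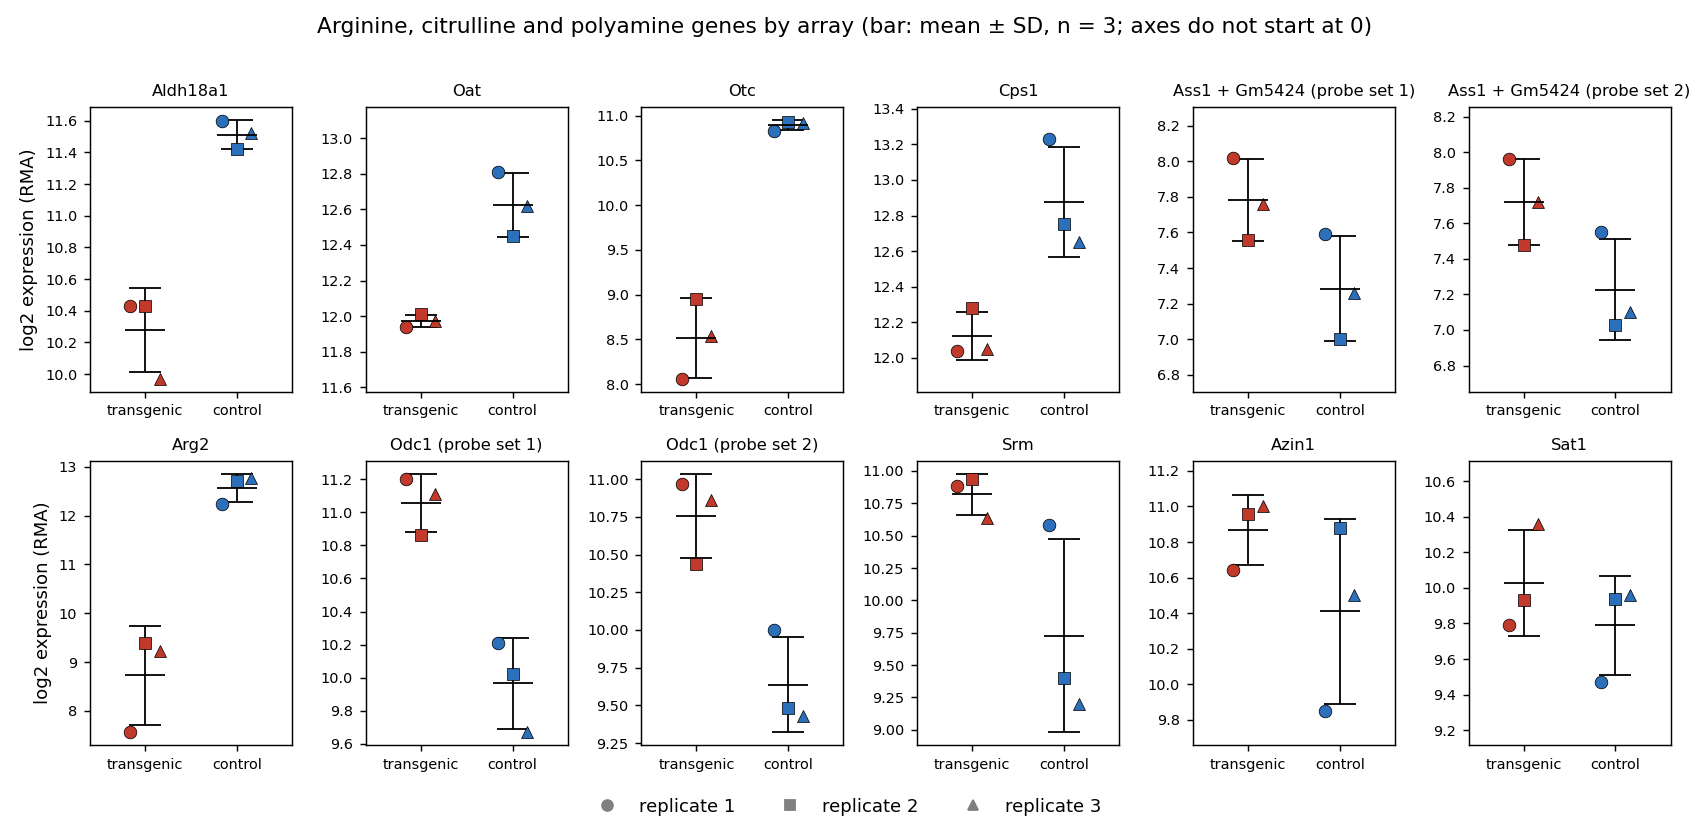
Log2 expression (y axis) of the 12 probe sets naming a member, in the 3 arrays labelled transgenic (red) and the 3 controls (blue), with marker shapes for replicate numbers and bars for mean ± SD. Aldh18a1, Oat, Otc, Cps1 and Arg2 lay lower in every array labelled transgenic than in any control, Odc1 and Srm lay higher, and Azin1, Sat1 and the Ass1 probe sets overlapped.

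All 4 enzymes of the route from glutamate to citrulline had lower values in the arrays labelled transgenic, and Otc differed most. Otc, the ornithine transcarbamylase, read 8.06, 8.95 and 8.54 in the arrays labelled transgenic, against 10.83, 10.93 and 10.92 in the controls. The controls lay within 0.10 of each other, while the arrays labelled transgenic spread over 0.88. The means were 5.19-fold apart, a log2 difference of -2.38 ± 0.22 (SE). Aldh18a1, which makes pyrroline-5-carboxylate, read 10.43, 10.43 and 9.97 in the arrays labelled transgenic and 11.60, 11.42 and 11.52 in the controls, a log2 difference of -1.24 ± 0.15 (SE). The groups did not overlap for either gene, and without control replicate 1 the differences were -2.41 and -1.19.

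Cps1 and Oat, the enzymes that provide the substrates of Otc, differed less. Cps1 read 12.04, 12.28 and 12.05 in the arrays labelled transgenic, against 13.23, 12.75 and 12.65 in the controls. Control replicate 1 had the highest Cps1 value, 0.53 above the mean of the other controls, and the log2 difference was -0.76 ± 0.17 (SE) with it and -0.58 ± 0.11 without it. Oat read 11.94, 12.01 and 11.97 in the arrays labelled transgenic, against 12.81, 12.45 and 12.62 in the controls. The 3 arrays labelled transgenic lay within 0.06 of each other, and the Oat means were 1.57-fold apart, a log2 difference of -0.65 ± 0.11 (SE), and -0.56 without control replicate 1. Neither gene's groups overlapped.

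The RefSeq promoter table (assembly GRCm38.p6) held 6 of the 10 members, and the 250 bases before the start site of 3 of them are shown because they belong to the largest and most opposed differences among those listed: Otc and Aldh18a1, lower, and Odc1, higher. Otc lies at chrX:10252055-10252304 on the plus strand, Aldh18a1 at chr19:40588464-40588713 on the minus strand and Odc1 at chr12:17544623-17544872 on the plus strand. Capitals mark a match to CACGTG, the E-box bound by MYC and related factors, to GGGCGG, the GC box bound by SP1, to the CCAAT box, to the TATA box (searched as TATAAA), or to TGATGNAAT, an element bound by dimers of C/EBP and ATF4, on either strand.
Otc: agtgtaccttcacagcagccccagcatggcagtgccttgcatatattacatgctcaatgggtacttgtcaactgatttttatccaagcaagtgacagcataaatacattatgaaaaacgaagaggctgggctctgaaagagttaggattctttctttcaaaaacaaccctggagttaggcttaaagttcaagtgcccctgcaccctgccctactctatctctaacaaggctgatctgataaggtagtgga
Aldh18a1: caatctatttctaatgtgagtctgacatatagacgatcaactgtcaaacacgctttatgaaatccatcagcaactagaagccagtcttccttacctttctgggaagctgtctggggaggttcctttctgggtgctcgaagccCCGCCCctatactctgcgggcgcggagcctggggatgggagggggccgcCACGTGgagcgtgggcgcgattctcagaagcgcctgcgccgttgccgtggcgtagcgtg
Odc1: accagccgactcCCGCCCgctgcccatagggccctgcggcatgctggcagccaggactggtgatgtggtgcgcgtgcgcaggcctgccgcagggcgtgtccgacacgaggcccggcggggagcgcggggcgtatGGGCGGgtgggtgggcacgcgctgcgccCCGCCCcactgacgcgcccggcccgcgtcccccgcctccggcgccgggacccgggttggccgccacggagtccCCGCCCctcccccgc
The Odc1 window held 4 GC boxes and was 80.0% G and C, where the median over 32851 such windows of all genes was 52.4%. The Aldh18a1 window held 1 E-box and 1 GC box, which did not overlap, and the Otc window, 43.6% G and C, held none of the 5 motifs. Among all windows, 6.02% held the E-box, 32.7% the GC box, 33.8% the CCAAT box, 12.4% the TATA box and 0.816% the C/EBP and ATF4 element. Of the other members in the table, Oat had 2 CCAAT matches, Sat1 had 2 GC boxes, and Ass1 had 1 E-box and 1 GC box. These are matches of letters and not binding sites.

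Nags and the carrier Slc25a15, which serve the same mitochondrial route, fell. Of 4 other measured genes of citrulline synthesis, 2 fell and none rose, where 9.65% of all genes fell. Their median log2 difference was -0.68 against 0.02 for all genes, and without control replicate 1 only 1 of them fell. Nags makes N-acetylglutamate, the activator that Cps1 requires, and read 7.51, 8.24 and 7.47 in the arrays labelled transgenic, against 8.94, 9.25 and 9.41 in the controls. Its log2 difference of -1.46 ± 0.24 (SE) passed in limma (adjusted p = 0.0139), with no overlap. Prodh, the first enzyme of proline oxidation, fell by 0.97 on the log2 scale (adjusted p = 0.0405). Glud1, the glutamate dehydrogenase, was at -0.38 ± 0.13 (SE) and did not pass (adjusted p = 0.0983). Slc25a15 carries ornithine into and citrulline out of mitochondria, and read 9.72, 9.93 and 9.87 in the arrays labelled transgenic, against 11.04, 11.31 and 11.26 in the controls. Its log2 difference was -1.36 ± 0.11 (SE, adjusted p = 0.00211 in limma), and it passed with each array left out in turn. Nags lost its call without control replicate 2, control replicate 3, transgenic replicate 1 or transgenic replicate 3 (highest adjusted p = 0.0632), and Prodh without any array except transgenic replicate 2 (highest 0.139). Without control replicate 1, Prodh was at -0.9 (adjusted p = 0.0642 in limma). With sex as a second term Prodh did not pass either (adjusted p = 0.0856).

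The proline list moved the same way where it passed. Of 4 other measured genes of proline synthesis and breakdown 2 fell, Pycrl and Prodh, and none rose, with a median log2 difference of -0.74. Prodh is counted in the citrulline list too. Pycrl (also named Pycr3) reduces pyrroline-5-carboxylate to proline, and fell by 0.51 on the log2 scale (adjusted p = 0.0279 in limma, up to 0.1 with 1 array left out, where the call was lost without transgenic replicate 1 or 3 or control replicate 2 or 3). With sex as a second term Pycrl did not pass either (adjusted p = 0.07), and none of these 4 other genes did. Aldh4a1, which oxidises pyrroline-5-carboxylate to glutamate, named after its values were seen, varied widely. It read 6.60, 8.53 and 7.95 in the arrays labelled transgenic, against 7.54, 9.58 and 9.11 in the controls. The groups overlapped and the difference of -1.05 missed the threshold (adjusted p = 0.351), as did that of -1.65 without control replicate 1 (adjusted p = 0.0852). It passed once replicate number was a block (adjusted p = 0.00472). Pycr1 was not analysed here.

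Arg2, the mitochondrial arginase, had the largest difference of the members. It read 7.56, 9.40 and 9.22 in the arrays labelled transgenic, against 12.24, 12.70 and 12.77 in the controls. Every array labelled transgenic lay at least 2.83 log2 units below the lowest control, and transgenic replicate 1 was the lowest by 1.66. The means were 14.3-fold apart, a log2 difference of -3.84 ± 0.49 (SE), and -4.00 without control replicate 1. Arg1, the cytosolic arginase of liver and of some myeloid cells, read 4.90, 4.99 and 4.95 in the arrays labelled transgenic and 4.71, 4.79 and 4.79 in the controls, and did not pass (adjusted p = 0.131).

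Among 7 other genes of arginine breakdown and mitochondrial transport, Slc25a15 fell and Slc25a2 and Slc25a12 rose, with a median log2 difference of -0.01. Slc25a2, a second ornithine carrier, read 6.15, 5.98 and 6.43 in the arrays labelled transgenic, against 5.41, 5.43 and 5.40 in the controls, a rise of 0.78 ± 0.12 (SE, adjusted p = 0.0125 in limma). It moved opposite to its paralog Slc25a15. Its control values lay below the array medians of 6.42 to 6.46, and whether they were above background was not tested. Slc25a12, an aspartate-glutamate carrier, rose by 0.41 ± 0.07 on the log2 scale (adjusted p = 0.016). The call of Slc25a2 was lost without control replicate 2 or 3 (highest adjusted p = 0.059), and that of Slc25a12 without transgenic replicate 1 or 3 or control replicate 2 or 3 (highest 0.068) and with an intensity trend and robust estimation (0.0606).

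The genes whose values over the 6 arrays were most like those of Arg2 were Tma7, Pgap3 and Inpp5e, with Pearson correlations of 0.999, 0.998 and 0.997. Their log2 differences were much smaller than that of Arg2, at -0.37, -0.50 and -1.13. For Odc1 they were Ero1a, Rint1 and Fut10, with correlations of 0.999, 0.996 and 0.994. With 3 arrays in each of 2 separate groups, such correlations rest mainly on the distance between the groups.

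**Figure D2:**
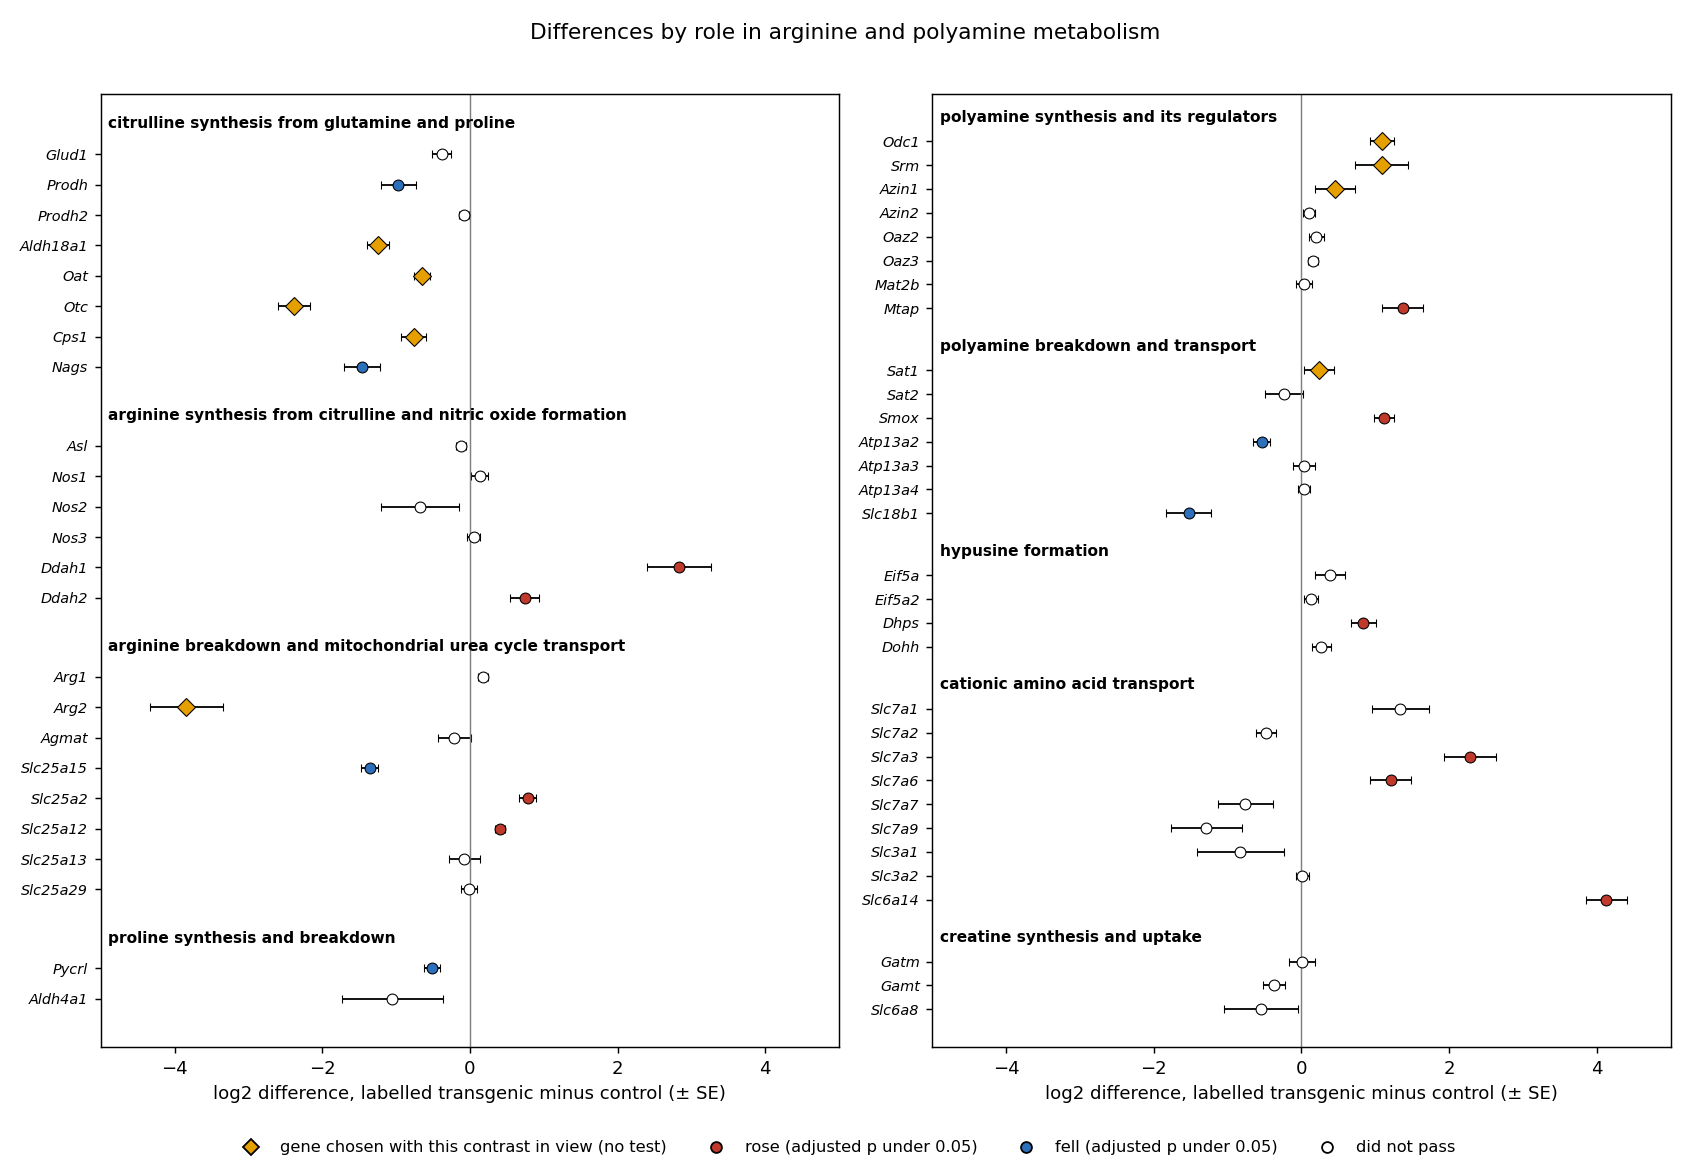
Log2 differences, labelled transgenic minus control (x axis, ± SE), of the 55 measured genes, sorted by role, with genes of several lists drawn once. Diamonds are the members, red and blue circles the other genes that rose or fell, and open circles those that did not pass. Citrulline genes lie left of 0, while Slc6a14, Ddah1 and Slc7a3 lie farthest to the right.

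In the list of arginine synthesis from citrulline and nitric oxide formation, Ddah1 and Ddah2 rose, and the other 4 measured genes did not pass. The 2 probe sets naming Ass1 with Gm5424 read 8.02, 7.56 and 7.76 and 7.96, 7.48 and 7.72 in the arrays labelled transgenic, against 7.59, 7.0 and 7.26 and 7.55, 7.03 and 7.10 in the controls. Both had control replicate 1 within the range of the arrays labelled transgenic, with mean differences of 0.50 and 0.49, or 0.65 and 0.66 without it. Asl, which completes arginine synthesis, read 7.97 ± 0.01 in the arrays labelled transgenic and 8.08 ± 0.04 in the controls (SD, n = 3 each), and did not pass (adjusted p = 0.28). The inducible nitric oxide synthase Nos2 ranged from 7.04 to 8.98 in the arrays labelled transgenic and from 8.05 to 9.22 in the controls, and did not pass (adjusted p = 0.449).

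Ddah1 degrades methylated arginines that inhibit nitric oxide synthases, releasing citrulline. It read 11.02, 11.24 and 10.80 in the arrays labelled transgenic, against 9.21, 7.79 and 7.57 in the controls. Control replicate 1 was the highest control, and without it the log2 difference was 3.34, against 2.83 ± 0.43 (SE) with it (adjusted p = 0.0113 in limma). The call was lost without control replicate 2 (adjusted p = 0.0533). Ddah2, its paralog, rose by 0.74 ± 0.20 on the log2 scale with an adjusted p that rounds to 0.05. Without control replicate 1, Ddah2 was at 0.72 (adjusted p = 0.0731 in limma). Ddah2 lost its call without any array except transgenic replicate 2 (highest adjusted p = 0.15), with sex as a second term (adjusted p = 0.0547), with probe sets averaged per gene (0.0501) and with quantile normalization (0.0583).

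Odc1 and Srm, the enzymes that make putrescine and spermidine, had higher values in the arrays labelled transgenic, while Azin1 and Sat1 overlapped between the groups. Odc1 read 11.20, 10.86 and 11.11 in its brighter probe set in the arrays labelled transgenic, against 10.21, 10.02 and 9.67 in the controls. Its other probe set read 10.76 ± 0.28 in the arrays labelled transgenic and 9.64 ± 0.32 in the controls (SD, n = 3 each), and neither probe set overlapped between the groups. The log2 differences of the pair were 1.09 and 1.12, or 2.13-fold and 2.18-fold. Without control replicate 1 they were 1.21 and 1.30.

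Srm, the spermidine synthase, read 10.88, 10.94 and 10.64 in the arrays labelled transgenic, against 10.58, 9.40 and 9.20 in the controls. Control replicate 1 lay 1.28 above the mean of the other controls and 0.06 below the lowest array labelled transgenic. The log2 difference was 1.09 ± 0.36 (SE), and 1.52 ± 0.13 without control replicate 1. Azin1, the antizyme inhibitor, read 10.64, 10.96 and 11 in the arrays labelled transgenic, against 9.85, 10.88 and 10.50 in the controls. Here control replicate 1 was the lowest array, and the log2 difference was 0.46 ± 0.27 (SE) with it and 0.18 ± 0.17 without it. Sat1, the polyamine acetyltransferase, read 9.79, 9.93 and 10.36 in the arrays labelled transgenic, against 9.47, 9.94 and 9.96 in the controls. Its log2 difference was 0.24 ± 0.20 (SE), and 0.08 without control replicate 1.

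Of 5 other measured genes of polyamine synthesis and regulation, Mtap rose and the rest did not pass, with a median log2 difference of 0.16. Mtap recycles methylthioadenosine, the by-product of spermidine and spermine synthesis. It read 9.40, 8.81 and 9.27 in the arrays labelled transgenic, against 8.34, 7.60 and 7.42 in the controls. Control replicate 1 was again the highest control, and the log2 difference was 1.37 ± 0.28 (SE, adjusted p = 0.023 in limma) with it and 1.65 without it. The call was lost without transgenic replicate 1 or 3 or control replicate 2 or 3 (highest adjusted p = 0.0925). Amd1 was not analysed here.

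Beyond Sat1, 1 of 6 other genes of polyamine breakdown and transport rose and 2 fell. Smox, the spermine oxidase, read 9.15, 9.27 and 9.22 in the arrays labelled transgenic, against 7.91, 7.98 and 8.39 in the controls. Its rise of 1.12 ± 0.14 on the log2 scale (SE, adjusted p = 0.00676 in limma) passed with each array left out in turn. Slc18b1, a vesicular polyamine transporter, read 8.59, 9.71 and 8.94 in the arrays labelled transgenic, against 10.35, 10.63 and 10.87 in the controls, and fell by 1.53 ± 0.30 on the log2 scale (adjusted p = 0.0211). Atp13a2, a lysosomal polyamine exporter, fell by 0.54 ± 0.11 (adjusted p = 0.0216). Slc18b1 and Atp13a2 each lost their call without transgenic replicate 1 or 3 or control replicate 2 or 3 (highest adjusted p = 0.0872 and 0.0865), and with sex as a second term (adjusted p = 0.052 and 0.0559). Sat2, a paralog of Sat1 named after its values were seen, was at -0.24 (adjusted p = 0.593) and passed without control replicate 1 at -0.53 (adjusted p = 0.0448). Paox was not analysed here.

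Spermidine also donates the side chain of hypusine, an amino acid found in the translation factor eIF5A, and Dhps, the first enzyme of that step, rose. Dhps read 8.99, 8.45 and 8.93 in the arrays labelled transgenic, against 8.10, 7.97 and 7.78 in the controls, a log2 difference of 0.84 ± 0.17 (SE, adjusted p = 0.023 in limma). The other 3 of 4 genes did not pass. Eif5a read 12.46, 12.23 and 12.34 in the arrays labelled transgenic, against 12.39, 11.76 and 11.71 in the controls, at 0.39 ± 0.20 (adjusted p = 0.23). Without control replicate 1, Eif5a was at 0.61 and passed (adjusted p = 0.0102). The call of Dhps was lost without transgenic replicate 1 or 3 or control replicate 2 or 3 (highest adjusted p = 0.0921) and with sex as a second term (adjusted p = 0.0528).

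**Figure D3:**
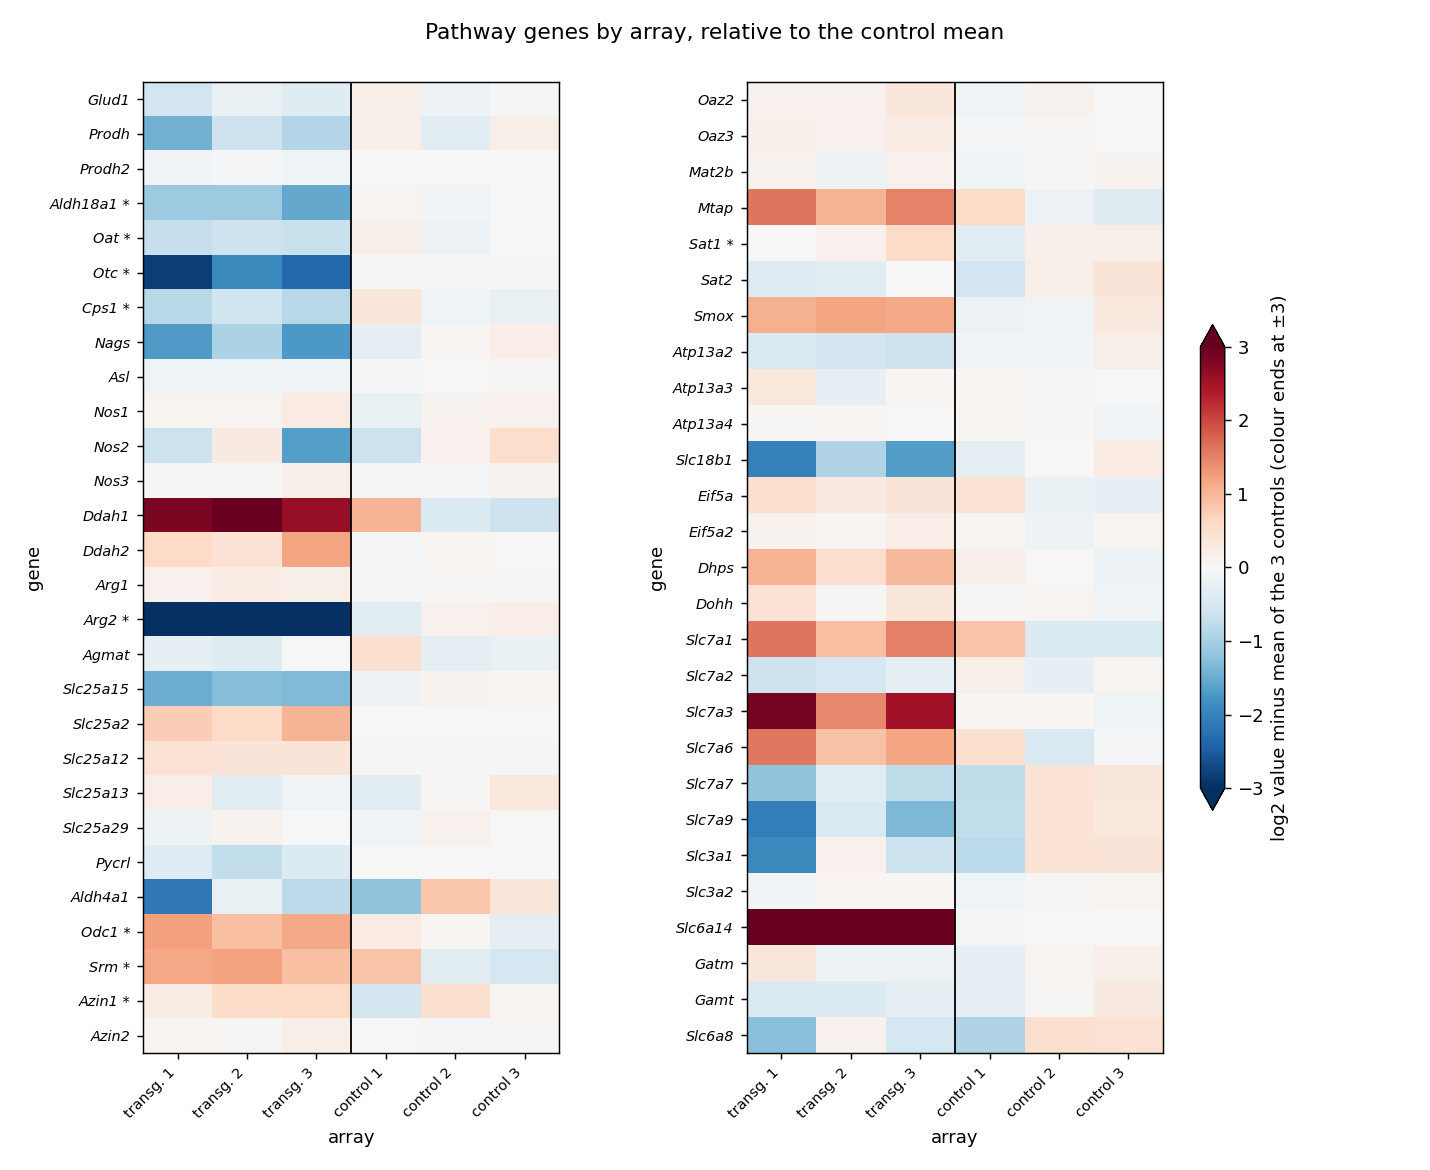
Log2 values of the 55 measured genes (rows, members with an asterisk) in each array (columns), minus the mean of the 3 controls. Arg2, Otc and Slc25a15 are blue in all 3 arrays labelled transgenic, Slc6a14 and Ddah1 are red, and control replicate 1 shares the colour of those arrays for Srm, Slc7a1, Slc7a9 and Aldh4a1.

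Among transporters of arginine and other cationic amino acids, Slc6a14, Slc7a3 and Slc7a6 rose. Of 9 measured genes these 3 passed and none fell, with a median log2 difference of 0.01. Slc6a14, which takes up neutral and cationic amino acids, read 9.05, 9.18 and 8.11 in the arrays labelled transgenic, against 4.63, 4.67 and 4.67 in the controls. The log2 difference was 4.13 ± 0.28 (SE, adjusted p = 0.00154 in limma), and whether the control signal was above background was not tested. It passed with each array left out in turn.

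Slc7a3, a cationic amino acid transporter, read 8.39, 6.97 and 8.04 in the arrays labelled transgenic, against 5.59, 5.58 and 5.40 in the controls (log2 difference 2.28 ± 0.35 SE, adjusted p = 0.0118 in limma). Slc7a6, a subunit of an arginine exchanger, rose by 1.21 ± 0.28 on the log2 scale (adjusted p = 0.032). Slc7a1, the broadly expressed arginine transporter, read 11.07, 10.36 and 10.99 in the arrays labelled transgenic, against 10.32, 9.06 and 9.02 in the controls, and did not pass (1.34 ± 0.39, adjusted p = 0.0635). It passed with the replicate block (adjusted p = 0.0188) and without control replicate 1 (1.77, adjusted p = 0.00556), and also with dim genes filtered, with an intensity trend and robust estimation, and with array weights (adjusted p = 0.0421, 0.0482 and 0.00307). Slc7a3 lost its call without control replicate 2 or 3 or transgenic replicate 3 (highest adjusted p = 0.0579). Slc7a6 lost it without transgenic replicate 1 or 3 or control replicate 2 or 3 (highest 0.113) and with sex as a second term (0.054).

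Slc7a7, Slc7a9 and Slc3a1, which serve absorption, had lower means but overlapping groups. Slc7a7, the basolateral arginine exporter subunit, read 10.52, 11.41 and 10.96 in the arrays labelled transgenic, against 10.97, 12.14 and 12.06 in the controls (-0.76 ± 0.37 SE, adjusted p = 0.215 in limma). Its partner Slc3a2 did not share the lower mean, and differed by 0.01 ± 0.09 (adjusted p = 0.936). Slc7a9 and Slc3a1, the subunits of the brush border carrier of cystine and cationic amino acids, named after their values were seen, were at -1.29 ± 0.48 and -0.83 ± 0.59 (adjusted p = 0.117 and 0.398). With the replicate block Slc7a7, Slc7a9 and Slc3a1 passed (adjusted p = 0.0214, 0.00896 and 0.0365). Without control replicate 1 Slc7a7 and Slc7a9 did, at -1.14 and -1.66 (adjusted p = 0.0252 and 0.0433), while Slc3a1 was at -1.23 (adjusted p = 0.186). Slc7a9 also passed without transgenic replicate 2, at -1.71 (adjusted p = 0.0448 in limma). Slc7a7, Slc7a9, Slc3a1 and the mean of the absorptive enterocyte markers all read lowest in transgenic replicate 1 and highest in control replicate 2. Control replicate 3 was close behind control replicate 2. Slc7a9 read 11.58 there against 11.66, and Slc3a1 12.31 against 12.32. The marker mean was 10.72, 12.36 and 11.79 in transgenic replicates 1, 2 and 3. It was 11.82 in control replicate 1 and 13.06 in control replicate 2, with control replicate 3 in between. A link between these transporters and the enterocyte markers was not tested.

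None of the 3 genes of creatine synthesis and uptake, another use of arginine, passed in limma, and none had an unadjusted p under 0.05. Their median log2 difference was -0.37. Without control replicate 1, Gamt, which completes creatine synthesis and was named after its values were seen, passed at -0.52 (adjusted p = 0.0185).

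Across all lists, 46 pathway genes other than the members were measured, of which 10 rose and 6 fell, or 34.8% against 18.6% of all genes. The lists were chosen with earlier results of these data known, so nothing is read from that share. The count was 20 without control replicate 1, 21 with the replicate block, and 9 with sex as a second term, and fell to 3 without control replicate 2, 4 without control replicate 3, 6 without transgenic replicate 1 and 5 without transgenic replicate 3.

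**Figure D4:**
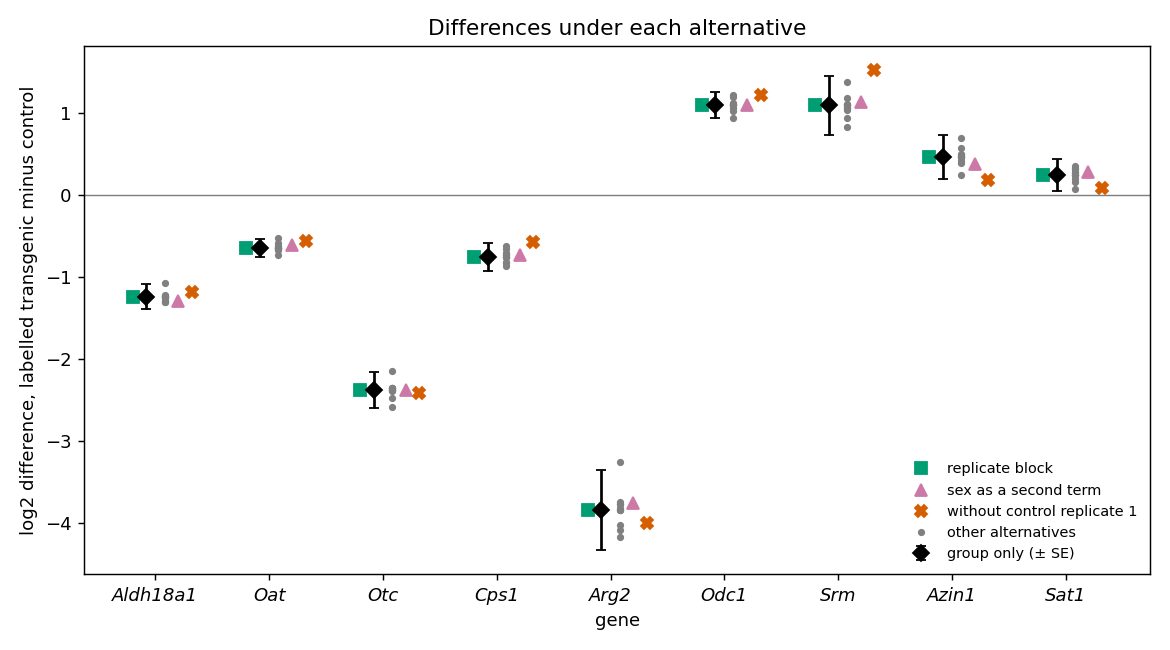
Log2 differences, labelled transgenic minus control (y axis), of the 9 measured members under the group-only fit (black, ± SE) and under each of 14 alternatives. All 9 kept their sign throughout, though the replicate block, the filter of dim genes and the intensity trend could not change these differences. For the 7 members whose groups did not overlap, leaving out an array or weighting the arrays could not change the sign either. Arg2 ranged from -4.17 to -3.25, Otc from -2.59 to -2.15, Srm from 0.83 to 1.52, and Azin1 from 0.18 to 0.69.

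The members fell into those that control replicate 1 moved little and those it moved much. Otc lay within 0.09 of the mean of the other controls in that array, and Aldh18a1 within 0.13. Odc1 lay 0.37 above them in its brighter probe set, and Srm 1.28 above. Arg2, Sat1 and Azin1 were lower in control replicate 1 than in the other controls, by 0.50, 0.48 and 0.84. In its Srm, Odc1 and Arg2 values control replicate 1 therefore lay towards the arrays labelled transgenic, and in its Cps1, Oat, Azin1 and Sat1 values away from them.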

How the data were processed

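The authors deposited log2 values, with a column for each of the 6 arrays and none pooled. Per the submitters' processing notes they were made with Partek and RMA, with no versions given, and RMA (background correction, normalization between arrays, probe summary) removes global shifts and compresses dim signals. The build and annotation behind the array's probe sets are not stated in the labels, and promoter coordinates are those of RefSeq's GRCm38.p6 alone. Of 28350 probe sets, 21780 named 1 gene, 1618 several and 4952 none here. RefSeq gene identifiers gave current symbols for 21689 of the 1-gene probe sets. Each of 19933 genes took its 1-gene probe set with the highest mean, unfiltered.

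Differences came from limma (version 3.58.1, R 4.3.3; lmFit and eBayes with no term but group, two-sided, Benjamini-Hochberg over all genes, threshold 0.05), which was tested on simulated data. P-values set the group difference against the spread between arrays within groups, which eBayes draws towards the spread of all genes. The number of 3 arrays a group limits the precision. Members and the 9 pathway lists were chosen with earlier results of these data known. The text names all members, Msi1, Msi2, up to 4 passing genes per pathway list, a set of key enzymes and transporters whatever their values, and the 3 genes most like Arg2 and Odc1. Of 66 listed genes, 55 were measured. Deviations from the group means of same-numbered arrays correlated by 0.52, 0.41 and 0.13 across genes, and those of differently numbered arrays by -0.44 to 0.32. No label says what a number shares. By Xist and Y-linked genes, transgenic replicates 1 and 2 and control replicate 2 read as male, and the other arrays as female. A replicate block, other probe set, filter, normalization and variance settings, array weights, sex read from Xist and Y-linked genes, and each array left out were alternatives.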

Additional observations from a re-analysis of the deposited data

How the results depend on the processing

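All 9 measured members kept the sign of their difference under the 14 alternatives, and 5 had a lower mean in the arrays labelled transgenic in each. The differences also stayed within 1 SD, the larger of the group SDs, of the group-only value. Counts depended on the setting. Over all genes 3710 passed (1787 higher and 1923 lower). With array weights 7072 did (3630 and 3442) and with sex as a second term 2159 (1068 and 1091). With the replicate block 5139 passed (2534 and 2605). In this balanced design the block, the filter of dim genes and the intensity trend can change standard errors but not the members' differences. Those settings could therefore not alter a sign. For the 7 members whose groups did not overlap, neither could leaving out an array or weighting the arrays. Leaving out 1 of 3 arrays also cannot move a difference by 1 SD, and averaging probe sets could move only Odc1. The kept signs and the 1 SD limit were thus largely set in advance. With 1 array left out the total ranged from 952 to 5542, the higher from 476 to 2663 and the lower from 476 to 2879. Of the other pathway genes 16 passed, and 9 did with sex as a second term, 22 with array weights, 21 with the replicate block, and 3 to 20 with 1 array left out. Of the members 6 passed, and 3 to 7 with 1 array left out. With quantile normalization 4 members passed, where 3633 genes did in all. Cps1 was then at -0.63 ± 0.24 (SE) and Oat at -0.53 ± 0.16. The member counts follow from the choice of the genes, and nothing is read from them. The replicate block changed the calls of Slc7a1, Slc7a7, Slc7a9, Slc3a1 and Aldh4a1 and of no other pathway gene outside the members, of which 7 passed with it. With array weights Slc7a1, Slc7a7, Slc7a9, Aldh4a1, Eif5a and Gamt passed as well. The median difference of all genes was 0.02, and 0.04 with median centring. Detection flags were not used, so whether dim probe sets such as that of Arg1 were above background was not tested. The causes of these changes were not tested.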

Other observations

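Probe sets that name several genes entered no test. The 2 that name Oaz1, the antizyme that targets Odc1 for degradation, together with Oaz1-ps read 9.95, 10.24 and 10.17 and 10.32, 10.66 and 10.55 in the arrays labelled transgenic, against 10.52, 10.90 and 10.80 and 10.94, 11.29 and 11.25 in the controls. Neither pair of groups overlapped, with mean log2 differences of -0.62 and -0.65. The 2 that name Sms, the spermine synthase, together with Gm8234 overlapped between the groups, with mean log2 differences of 0.24 and 0.23. The share of these signals that belongs to Oaz1 or Sms is not known.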
